A study of Mus musculus with 11 samples.

Results

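Mitotic kinesins are the motor proteins that build the spindle, move chromosomes and separate daughter cells. The 10 genes described here are Kif11, Kif14, Kif15, Kif18a, Kif20a, Kif20b, Kif22, Kif23, Kif2c and Kif4. They were chosen by gene symbol out of 24064 genes, with earlier results of these data known. Each is given by 1 transcript, the one whose level averaged over all 7 gated libraries was highest. The RNA came from haematopoietic stem cells (HSCs) of newborn mouse liver, sorted as Lineage- Sca1+ cKit+ CD150+ CD48-. FSC-A High HSCs (4 libraries), FSC-A Low HSCs (3 libraries) and HSCs with no scatter gate, titled WT and called unfractionated here (4 libraries), were all labelled wild-type C57BL/6 liver at postnatal day 0. FSC-A is the area of the forward-scatter pulse in a cell sorter, a measure that rises with cell size. The labels name no deletion, transgene or drug in any group. Each library was made with the Smart-seq2 method from 100 to 200 cells sorted into Triton X-100. Nothing in the labels says whether libraries of a group came from different animals, so p-values measure the spread between libraries, which may be technical.

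Kinesins walk along or act on microtubules with the energy of ATP. Transport kinesins such as Kif5b and Kif3a carry organelles and vesicles in interphase cells. Mitotic kinesins act at cell division, and transcripts of many of them are known to peak late in the cell cycle and to be low in quiescent cells. HSCs of fetal and newborn liver are known to divide more than HSCs of adult bone marrow.

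Promoters of genes expressed late in the cell cycle are known to carry the CHR element, for which the letters TTTGAA were searched on both strands. The windows run from 250 bases before to 50 bases after the transcript start in RefSeq (GRCm38.p6), 300 bases in all. A window was matched for 9 of the 10 mitotic kinesins, and 8 of them held the letters. Among all 32851 windows 17.9% held them, and among the 3 transport kinesins with a window 0 did. For each of these 8 genes the match nearest the start is shown, because these letters were found in more members than the other letters searched. Each is given as 30 bases in the gene's direction, with TTTGAA, or TTCAAA where the match is on the other strand, in capitals.
Kif11: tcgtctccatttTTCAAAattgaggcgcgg
Kif15: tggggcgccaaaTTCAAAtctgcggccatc
Kif22: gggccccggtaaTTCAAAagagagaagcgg
Kif23: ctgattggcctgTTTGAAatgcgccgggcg
Kif20b: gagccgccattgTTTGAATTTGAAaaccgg
Kif4: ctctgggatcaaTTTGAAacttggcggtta
Kif2c: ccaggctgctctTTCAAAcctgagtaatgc
Kif14: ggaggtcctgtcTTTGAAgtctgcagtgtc

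These stretches lie at chr19:37376351-37376380 (Kif11, plus strand), chr9:122951050-122951079 (Kif15, plus), chr7:127042420-127042449 (Kif22, minus) and chr9:61946780-61946809 (Kif23, minus). The others lie at chr19:34922353-34922382 (Kif20b, plus), chrX:100626072-100626101 (Kif4, plus), chr4:117178858-117178887 (Kif2c, minus) and chr1:136467608-136467637 (Kif14, plus). The matches shown for Kif11, Kif15 and Kif22 sat just before the start, that of Kif23 at it, and those of Kif20b and Kif4 just after it. Those of Kif2c and Kif14 sat farther upstream of starts that fall inside the annotated span of their genes. Kif20b held the letters as a direct repeat, and Kif15 and Kif22 each held a second, more distal match, at -234 and -215 from the start, that is not shown. A match of letters is a description of the window and shows no binding.

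The CCAAT box, another element known from cell-cycle promoters, was found on either strand in 5 of the 9 windows (Kif11, Kif14, Kif22, Kif23 and Kif4), against 37.4% of all windows. It was in the windows of 3 of 3 transport kinesins too. The E2F-like letters TTTGGCGC, TTTGCCGC, TTTCGCGC and TTTCCCGC were searched on both strands. They were found in Kif15 and Kif18a, against 2.26% of all windows. The 80 bases before the starts of Kif11 and Kif15 show the arrangements. In Kif11 (chr19:37376302-37376381, plus strand) the capitals mark a CCAAT box on the other strand (ATTGG), followed by the reversed TTTGAA. In Kif15 (chr9:122951001-122951080, plus strand) they mark a reversed E2F-like match that runs directly, without overlap, into the reversed TTTGAA.
Kif11: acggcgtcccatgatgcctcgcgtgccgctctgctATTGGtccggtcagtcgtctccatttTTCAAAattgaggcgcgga
Kif15: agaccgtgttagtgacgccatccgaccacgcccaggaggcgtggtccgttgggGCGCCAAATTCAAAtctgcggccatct

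Values of the gated libraries are given as RPKM, reads scaled to transcript length and library depth, a unit inferred from the values. Depth, estimated from the step between low values, was 65.5 M to 85.2 M reads in FSC-A High libraries and 69.25 M to 97.8 M reads in FSC-A Low libraries. The 6 HSC markers used were all tested, and their summed level was 76.2 to 119 RPKM in FSC-A High libraries against 110 to 131 RPKM in FSC-A Low libraries. Kit, Mecom and Hlf were called lower in FSC-A High, beside 11.7% of all genes tested, and the other 3 were not called. Of those, Ly6a (27.4 against 12.8 RPKM, limma adjusted p = 0.0518) and Procr (28.1 against 21.5 RPKM) had the higher mean in FSC-A High. Slamf1 had the lower mean there (6.24 against 8.83 RPKM). Cd48, selected against in the sort, had 0.0822 to 3.32 RPKM in FSC-A High and 0.946 to 1.75 RPKM in FSC-A Low libraries. The 3 erythroid markers used summed to 85.1 to 219 RPKM in FSC-A High and 54.1 to 79.8 RPKM in FSC-A Low libraries, nearly all of it Hbb-bt, with Alas2 below 1 RPKM in all 7. The 3 myeloid markers in the files summed to 181 to 270 RPKM in FSC-A High and 166 to 174 RPKM in FSC-A Low libraries. Nearly all of it was Lyz2, called higher in FSC-A High. Mpo had the lower mean in FSC-A High (4.73 against 8.30 RPKM) and was not called. The endothelial sum was 2.40 to 7.93 RPKM in FSC-A High and 9.72 to 16.7 RPKM in FSC-A Low libraries. Most of it was Pecam1, called lower in FSC-A High, and Kdr overlapped between the groups. Cdh5, below 1 RPKM in all 7, had the higher mean in FSC-A High (0.155 against 0.0704 RPKM). The hepatocyte sum was 11.3 to 15.7 RPKM in FSC-A High and 7.25 to 16.3 RPKM in FSC-A Low libraries. The lymphoid sum stayed under 1 RPKM in every gated library. The part of these shifts in the kinesin values was not tested. In sorted pools, fewer cells that express a gene and less RNA per cell cannot be told apart.

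Of the 10 mitotic kinesins, 9 were higher in FSC-A High than in FSC-A Low HSCs, 0 were lower and Kif14 missed the threshold (limma on log2(RPKM + 1), Benjamini-Hochberg adjusted p below 0.05). Over all 10619 genes tested, 15.6% were higher and 11.7% were lower. All 4 FSC-A High libraries lay above all 3 FSC-A Low libraries for 10 of the 10 members, against 18.9% of all genes tested. The median log2 difference of the members was 2.15, beside -0.04 over all genes tested. A gene was tested if it reached 1 RPKM in at least 3 of the 7 libraries. Kif11, Kif20a, Kif22 and Kif23 reached 1 RPKM in all 7, while the other 6 members passed only through the FSC-A High libraries, so their counts carry that selection. The members were also chosen with earlier results of these data known, so these counts describe the list and do not test it.

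**Figure D1:**
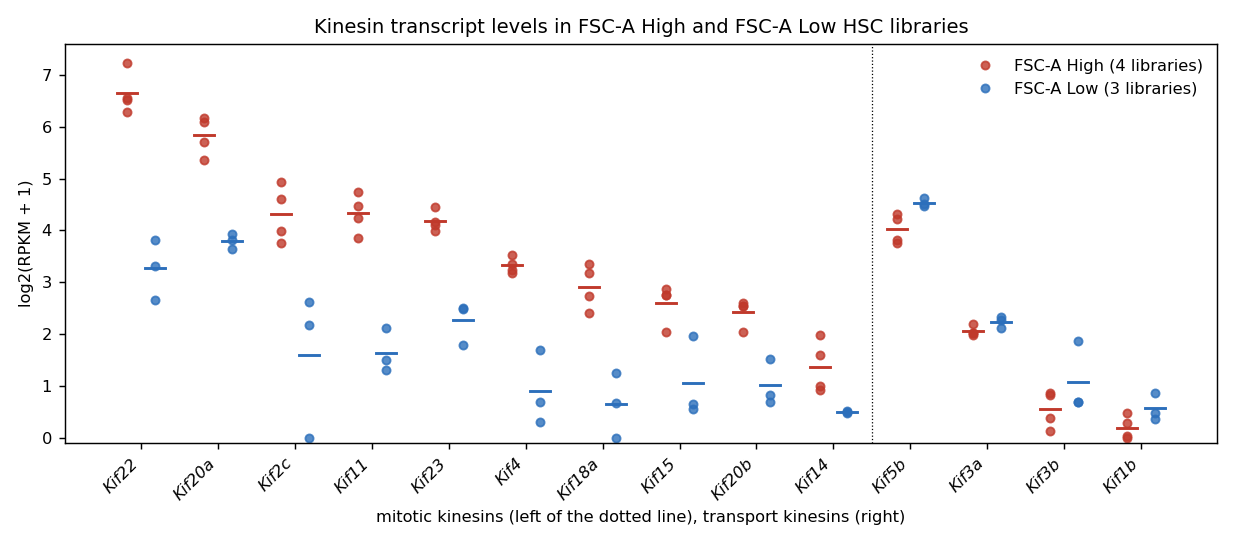
Levels of 10 mitotic and 4 transport kinesins on the log2(RPKM + 1) scale, with 1 point per library and a bar for the mean of the log2 values of FSC-A High (n = 4) or FSC-A Low (n = 3). For every mitotic kinesin all FSC-A High points lie above all FSC-A Low points, while for Kif5b the order is the other way.

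The first pair builds the bipolar spindle. Kif11 slides antiparallel microtubules apart and pushes the spindle poles away from each other. It had 21.3, 13.5, 17.8 and 25.8 RPKM in FSC-A High libraries, against 3.37, 1.82 and 1.47 RPKM in FSC-A Low libraries. The lowest FSC-A High library was thus several-fold above the highest FSC-A Low library. The means were 19.6 ± 5.22 RPKM in FSC-A High (SD, n = 4) and 2.22 ± 1.01 RPKM in FSC-A Low (SD, n = 3), a ratio of 8.84. FSC-A High exceeded FSC-A Low by 2.69 on the log2 scale (SE 0.31, limma adjusted p = 7.68e-05).

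Kif15 helps hold the poles apart and is known to sustain the spindle when Kif11 is blocked. It had 3.09, 5.72, 5.71 and 6.34 RPKM in FSC-A High libraries, against 2.90, 0.469 and 0.574 RPKM in FSC-A Low libraries. FSC-A Low replicate 1 came close to the lowest FSC-A High library, and the other FSC-A Low libraries were far below it. The difference on the log2 scale was 1.54 (SE 0.40, limma adjusted p = 0.0124). With no filter on low values the adjusted p was 0.0635.

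The chromokinesins bind chromosomes. Kif22, which pushes chromosome arms toward the spindle equator, was the most abundant mitotic kinesin in FSC-A High HSCs and had the largest log2 difference of the members. It had 77.0, 90.3, 93.3 and 149.7 RPKM in FSC-A High libraries, against 13.2, 5.33 and 8.94 RPKM in FSC-A Low libraries. FSC-A High replicate 4 was well above the other 3 FSC-A High libraries, and the groups were far apart without it. The means were 102.6 ± 32.2 RPKM in FSC-A High (SD, n = 4) and 9.15 ± 3.92 RPKM in FSC-A Low (SD, n = 3), a ratio of 11.2. The log2 difference was 3.38 (SE 0.28, 95% interval 2.77 to 4.00, limma adjusted p = 6.29e-06). It ranked 27 from the top among the 10619 genes tested.

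Kif4 acts in chromosome condensation and, with Prc1, in the central spindle. It had 8.11, 8.41, 9.20 and 10.6 RPKM in FSC-A High libraries, against 0.616, 2.25 and 0.239 RPKM in FSC-A Low libraries. The FSC-A High libraries agreed closely, with a coefficient of variation of 12.2%, whereas the FSC-A Low libraries spread far more widely, with 103%. On the log2 scale Kif4 was higher by 2.43 (SE 0.36, limma adjusted p = 0.000411).

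Kif2c and Kif18a act at microtubule ends. Kif2c shortens microtubules at centromeres and helps correct faulty attachments. It had 14.8, 12.5, 23.5 and 29.6 RPKM in FSC-A High libraries, against 3.54, 5.18 and 0 RPKM in FSC-A Low libraries. The means were 20.1 ± 7.90 RPKM in FSC-A High (SD, n = 4) and 2.91 ± 2.65 RPKM in FSC-A Low (SD, n = 3). FSC-A Low replicate 3 listed Kif2c at 0, although an estimated 722 and 1439 reads covered it in the other FSC-A Low libraries. The log2 difference was 2.72 (SE 0.53, 95% interval 1.57 to 3.87, limma adjusted p = 0.00243), with the widest error among the members. Without FSC-A Low replicate 3 it was 1.92 (adjusted p = 0.00316).

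Kif18a (chr2:109280738-109341749, GRCm38) caps the growth of kinetochore microtubules and damps chromosome oscillations. It had 8.01, 5.63, 4.27 and 9.26 RPKM in FSC-A High libraries, against 1.38, 0.599 and 0 RPKM in FSC-A Low libraries. The value of 0 was again in FSC-A Low replicate 3, and the groups did not overlap. Kif18a was higher by 2.27 on the log2 scale (SE 0.38, limma adjusted p = 0.000919).

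Kif23, Kif20a, Kif20b and Kif14 act at the central spindle and in cytokinesis. Kif23 forms the centralspindlin complex with Racgap1 and bundles midzone microtubules. It had 16.9, 16.3, 14.8 and 20.8 RPKM in FSC-A High libraries, against 4.63, 4.69 and 2.48 RPKM in FSC-A Low libraries. FSC-A High libraries had a coefficient of variation of 14.8% and FSC-A Low libraries one of 32.1%, with a clear gap between the groups. The means were 17.2 ± 2.55 RPKM in FSC-A High (SD, n = 4) and 3.93 ± 1.26 RPKM in FSC-A Low (SD, n = 3), which put Kif23 higher by 1.91 on the log2 scale (SE 0.28, limma adjusted p = 0.000362).

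Kif20a carries the chromosomal passenger complex to the midzone. It had 66.8, 40.3, 51.3 and 70.9 RPKM in FSC-A High libraries, against 14.3, 11.5 and 13.1 RPKM in FSC-A Low libraries. By the listed values it was the most abundant mitotic kinesin in every FSC-A Low library. Part of its transcript lies over exons of Cdc23 on the other strand, so this place is uncertain. The means were 57.3 ± 14.2 RPKM in FSC-A High (SD, n = 4) and 12.96 ± 1.41 RPKM in FSC-A Low (SD, n = 3). The log2 difference was 2.03 (SE 0.22, 95% interval 1.55 to 2.52, limma adjusted p = 5.23e-05).

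Kif20b acts at the midbody when daughter cells are cut apart. It had 4.83, 4.79, 3.09 and 5.08 RPKM in FSC-A High libraries, against 1.87, 0.610 and 0.772 RPKM in FSC-A Low libraries. Replicate 3 stood below the other FSC-A High libraries and still above every FSC-A Low library. On the log2 scale Kif20b was higher by 1.42 (SE 0.34, limma adjusted p = 0.00774).

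Kif14 binds citron kinase and Prc1 and is needed for cytokinesis. It was the lowest mitotic kinesin by mean in each group, with 2.01, 0.900, 1.01 and 2.93 RPKM in FSC-A High libraries, against 0.388, 0.428 and 0.411 RPKM in FSC-A Low libraries. The FSC-A Low libraries were nearly equal, and the FSC-A High libraries spread about 3-fold above them. The means were 1.71 ± 0.952 RPKM in FSC-A High (SD, n = 4) and 0.409 ± 0.0197 RPKM in FSC-A Low (SD, n = 3), a ratio of 4.19. The log2 difference of 0.88 (SE 0.35, 95% interval 0.13 to 1.63) did not pass the threshold (limma adjusted p = 0.0781). The pseudocount of 1 shrinks differences at such low levels. The gene had an estimated 645 to 2231 reads in FSC-A High libraries and 249 to 374 reads in FSC-A Low libraries, spread over the longest transcript of the set (8943 nt). It was called in 2 of 21 alternative settings, with the length trend removed (log2 difference 1.25, limma adjusted p = 0.0231) or the expression level trend removed (1.01, adjusted p = 0.0483). With a pseudocount of 0.5 the log2 difference was 1.18, and Kif14 was still not called (limma adjusted p = 0.0776). The limma adjusted p was 0.219 with a replicate block and 0.174 without FSC-A High replicate 4.

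**Figure D2:**
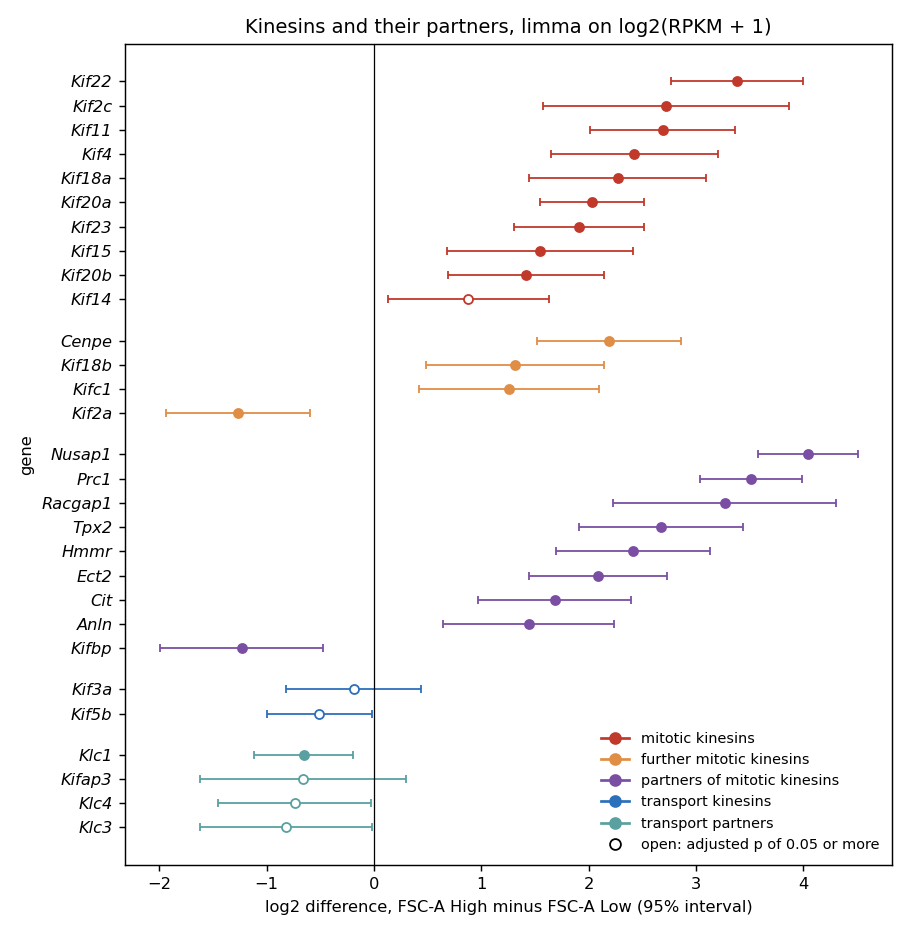
Log2 difference (FSC-A High minus FSC-A Low) with its 95% interval from limma, by gene, for the mitotic kinesins, further mitotic kinesins, partners of mitotic kinesins, transport kinesins and transport partners that were tested. Filled points passed the threshold and open points did not. Mitotic kinesins run from 0.88 (Kif14) to 3.38 (Kif22).

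Of the 4 transport kinesins, set beside the mitotic ones for comparison, only 2 were tested, and 0 were called in either direction. Among all genes tested 15.6% were higher and 11.7% lower, so a count of 0 of 2 says little about transport kinesins. Kif5b, the heavy chain of conventional kinesin, had 17.6, 13.1, 19.0 and 12.5 RPKM in FSC-A High libraries, against 23.6, 21.3 and 21.9 RPKM in FSC-A Low libraries. Every FSC-A Low library was above every FSC-A High library. The log2 difference was -0.51 (SE 0.23, 95% interval -0.998 to -0.0211, limma adjusted p = 0.113). With each library scaled to its total, Kif5b was called lower in FSC-A High (-0.81, limma adjusted p = 0.0193). In that setting the median of all genes was itself -0.30. With the length trend removed the Kif5b difference was -0.12 (limma adjusted p = 0.751). Kif3a, a motor subunit of heterotrimeric kinesin, had 3.04, 3.05, 2.96 and 3.56 RPKM in FSC-A High libraries, against 3.37, 4.02 and 3.84 RPKM in FSC-A Low libraries. The groups overlapped (log2 difference -0.19, SE 0.29, 95% interval -0.82 to 0.44, limma adjusted p = 0.670), and the sign changed to 0.06 when the trend with expression level was removed.

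Kif3b and Kif1b failed the filter. Kif3b, the partner subunit of Kif3a, ran from 0.0919 to 0.822 RPKM in FSC-A High and from 0.606 to 2.66 RPKM in FSC-A Low libraries. Kif1b, a carrier of mitochondria and synaptic vesicle precursors, stayed under 1 RPKM in all 7. Summed within a library, the mitotic kinesins reached 198 to 331 RPKM in FSC-A High and 28.0 to 46.1 RPKM in FSC-A Low libraries. Divided by the summed RPKM of the 4 transport kinesins in the same library, they stood at 9.69 to 19.4 in FSC-A High and at 1.03 to 1.54 in FSC-A Low libraries. This ratio does not depend on how libraries are scaled to each other, but it rests on few genes. Kif22 and Kif20a made up most of the mitotic sum, and Kif5b made up most of the transport sum. The part of transcript length, and of the overlap of Kif20a with Cdc23, in this ratio was not tested.

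**Figure D3:**
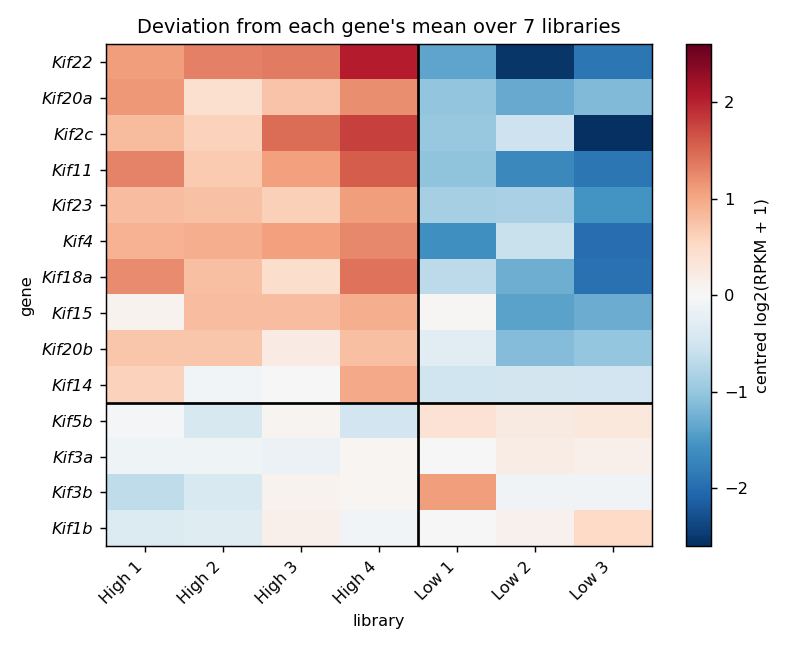
Heat map of the 10 mitotic kinesins (above the line) and 4 transport kinesins (below) in the 7 gated libraries, as log2(RPKM + 1) minus the gene's mean over the 7 libraries. Red is above and blue below that mean. FSC-A High replicate 4 has the highest value of its group for 10 of 10 mitotic kinesins.

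Within FSC-A High, replicate 4 was the highest of the 4 libraries for 10 of the 10 members, whereas it was the highest for 30.7% of all genes tested. The lowest FSC-A High library differed by gene: replicate 1 for Kif15, Kif22 and Kif4, replicate 2 for Kif11, Kif14, Kif20a and Kif2c, and replicate 3 for Kif18a, Kif20b and Kif23. Among FSC-A Low libraries, replicate 1 was highest for 6 members, replicate 2 for 4 and replicate 3 for 0, against 33.5%, 32.6% and 34.0% of all genes tested. Replicate 3 was lowest for Kif11, Kif18a, Kif23, Kif2c and Kif4. Without FSC-A High replicate 4, 9 of the 10 members were still called higher, and 9 were called when any other gated library was left out.

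In FSC-A High HSCs, ordered by RPKM, Kif22 stood above Kif20a in 4 of 4 libraries, and Kif20a stood above Kif2c in 4 of 4. Kif2c, Kif11 and Kif23 followed without a steady order: Kif2c was above Kif11 in 2 of 4 libraries, and Kif11 was above Kif23 in 3 of 4. Kif23 was above Kif4, and Kif4 above Kif18a, in 4 of 4. Kif18a, Kif15 and Kif20b then changed places between libraries, and Kif14 was last in 4 of 4. In FSC-A Low HSCs Kif20a came before Kif22 and Kif22 before Kif23 in 3 of 3 libraries. Below Kif23, only Kif11 over Kif15 held in 3 of 3 libraries among neighbours in that order. Kif22 and Kif20a thus stood in opposite order in the gated groups, in every library of each. That order is uncertain, because 34.6% of Kif20a lies over exons of Cdc23 on the other strand. Cdc23 averaged 42.0 RPKM in FSC-A Low libraries.

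Relatives were compared by the difference within a library between their log2(RPKM + 1) values, in 5 pairs, with a two-sided exact permutation test over the 7 libraries. The smallest p this design allows is 0.0286, and none of the 5 pairs passed after adjustment. Even at that p, no pair could pass on its own after adjustment, so a miss says little about any pair. For Kif11 minus Kif15, the spindle pole pair, the within-library differences were 2.44, 1.11, 1.49 and 1.87 in FSC-A High and 0.16, 0.94 and 0.65 in FSC-A Low libraries. These did not overlap, and their means differed by 1.14 (SE 0.36, exact permutation p = 0.0571, adjusted p = 0.143). For the chromokinesins, Kif22 minus Kif4 was 3.10, 3.28, 3.21 and 3.70 in FSC-A High and 3.13, 0.96 and 3.00 in FSC-A Low libraries. The groups overlapped, and FSC-A Low replicate 2 alone was far from the rest (difference of means 0.95, SE 0.71, exact permutation p = 0.0571, adjusted p = 0.143). Without that library the difference of means was 0.25.

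The other pairs gave smaller differences of means. Kif20a minus Kif20b differed by 0.62 (SE 0.27, exact permutation p = 0.114, adjusted p = 0.190). Kif23 minus Kif20a, 2 motors of the midzone, differed by -0.13 (SE 0.30, exact permutation p = 0.657, adjusted p = 0.657), and by 0.07 without FSC-A Low replicate 2. Kif18a minus Kif2c differed by -0.45 (SE 0.64, exact permutation p = 0.514, adjusted p = 0.643), and by 0.03 without FSC-A Low replicate 3. With 4 and 3 libraries, these tests do not show that the motors of a pair changed alike.

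Of 9 listed genes that work with the mitotic kinesins, 8 were higher and 1 was lower in FSC-A High HSCs, beside 15.6% higher and 11.7% lower among all genes tested. That list was chosen with earlier results of these data known, and Hmmr and Cit passed the filter only through FSC-A High libraries. Prc1, which cross-links antiparallel microtubules and recruits Kif4 and Kif14, averaged 58.35 ± 8.59 RPKM in FSC-A High and 4.19 ± 0.784 RPKM in FSC-A Low libraries (log2 difference 3.51, limma adjusted p = 3.49e-07). Nusap1, a microtubule-binding spindle protein, averaged 60.1 ± 5.64 RPKM in FSC-A High and 2.72 ± 0.456 RPKM in FSC-A Low libraries (log2 difference 4.04, limma adjusted p = 1.12e-07). Its difference exceeded that of every mitotic kinesin. Racgap1, the partner of Kif23, had 87.2, 67.5, 80.1 and 84.7 RPKM in FSC-A High libraries, against 17.4, 11.0 and 1.66 RPKM in FSC-A Low libraries. FSC-A Low replicate 3, the lowest for Kif23 as well, was far below the other FSC-A Low libraries (log2 difference 3.27, limma adjusted p = 0.000367). Without it the log2 difference was 2.44 (adjusted p = 3.62e-05). Tpx2, which brings Kif11 to spindle microtubules, averaged 31.8 ± 5.79 RPKM in FSC-A High and 4.79 ± 3.84 RPKM in FSC-A Low libraries (log2 difference 2.67, limma adjusted p = 0.000185).

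The other partners that were higher were Hmmr, a spindle adaptor (log2 difference 2.41), Ect2, the RhoA exchange factor of the cleavage furrow (2.08), Cit, the citron kinase bound by Kif14 (1.68), and Anln, the furrow scaffold anillin (1.44). Their limma adjusted p-values were 0.000245, 0.000314, 0.00251 and 0.0114, and that of Anln was 0.0525 with no filter on low values. Kifbp, which binds the motor domains of several kinesins, Kif15 and Kif18a among them, and blocks them from microtubules, was the one partner that was lower. It had 7.27, 10.8, 18.03 and 21.8 RPKM in FSC-A High libraries, against 39.7, 21.0 and 41.7 RPKM in FSC-A Low libraries. FSC-A High replicate 4 was slightly above FSC-A Low replicate 2, so the groups overlapped (log2 difference -1.23, limma adjusted p = 0.0202). The adjusted p was 0.0530 without FSC-A High replicate 2, 0.0751 without FSC-A Low replicate 1, 0.0804 without FSC-A Low replicate 3, and 0.110 with no filter.

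Of 5 further mitotic kinesins, 3 were higher, 1 was lower and Kif2b was listed at 0 in all 7 gated libraries, beside the same 15.6% and 11.7% of all genes tested. The 3 that were higher passed the filter only through the FSC-A High libraries. Cenpe, the kinetochore motor that brings chromosomes to the equator, averaged 7.50 ± 1.26 RPKM in FSC-A High and 0.874 ± 0.351 RPKM in FSC-A Low libraries (log2 difference 2.19, limma adjusted p = 0.000298). Kif18b, a motor that acts on astral microtubules, had a log2 difference of 1.31 (limma adjusted p = 0.0227). Its adjusted p was 0.0712 without FSC-A High replicate 2, 0.0567 without FSC-A High replicate 4, 0.0885 without FSC-A Low replicate 2 and 0.0686 with no filter on low values. Kifc1, a minus-end-directed motor that focuses spindle poles, had a log2 difference of 1.26 (limma adjusted p = 0.0286). It has a near-identical copy, Kifc5b, so its reads are uncertain. Its adjusted p was 0.0629, 0.0597 and 0.0563 without FSC-A High replicate 1, 3 or 4. It was 0.0592 under library total scaling and 0.0905 with no filter. Without FSC-A Low replicate 3 the log2 difference was 0.81 (adjusted p = 0.118).

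Kif2a, a microtubule depolymerase of spindle poles that is also used in interphase cells, went the other way from its relative Kif2c. It had 1.79, 1.67, 1.90 and 2.74 RPKM in FSC-A High libraries, against 7.89, 5.14 and 5.92 RPKM in FSC-A Low libraries. All FSC-A Low libraries were above all FSC-A High libraries (log2 difference -1.27, SE 0.31, limma adjusted p = 0.00889). With the length trend removed the difference was -0.89 (adjusted p = 0.0565).

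Of 5 transport partners, 4 were tested, 0 were higher and 1 was lower, beside 15.6% higher and 11.7% lower among all genes tested. Klc1, a light chain that links Kif5b to cargo, had a log2 difference of -0.66 (limma adjusted p = 0.0373). Its adjusted p was 0.0717, 0.0584 and 0.0821 without FSC-A High replicate 1, 3 or 4, and 0.0753 and 0.167 without FSC-A Low replicate 2 or 3. It was 0.0936 with no filter and 0.0670 with the length trend removed. Klc3, Klc4 and Kifap3 had log2 differences of -0.82, -0.74 and -0.67 and were not called (limma adjusted p = 0.122, 0.114 and 0.293). Klc4 reached adjusted p = 0.0380 without FSC-A Low replicate 2, and Kifap3 reached 0.0291 without FSC-A Low replicate 3. Among the remaining 24 kinesins in the files, 3 were tested, and Kif21a was the only one called, beside the same shares of all genes tested. It had 1.59, 0.224, 0.342 and 0.438 RPKM in FSC-A High libraries, against 1.96, 2.07 and 2.66 RPKM in FSC-A Low libraries. Kif21a thus passed the filter only through the FSC-A Low libraries, and it was lower in FSC-A High (log2 difference -1.03, limma adjusted p = 0.0433). That call was lost when FSC-A High replicate 2, 3 or 4 or any FSC-A Low library was left out, with adjusted p from 0.0727 to 0.117. It was also lost with no filter (0.0652), with the length trend removed (0.216) and with the expression level trend removed (0.0900).

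**Figure D4:**
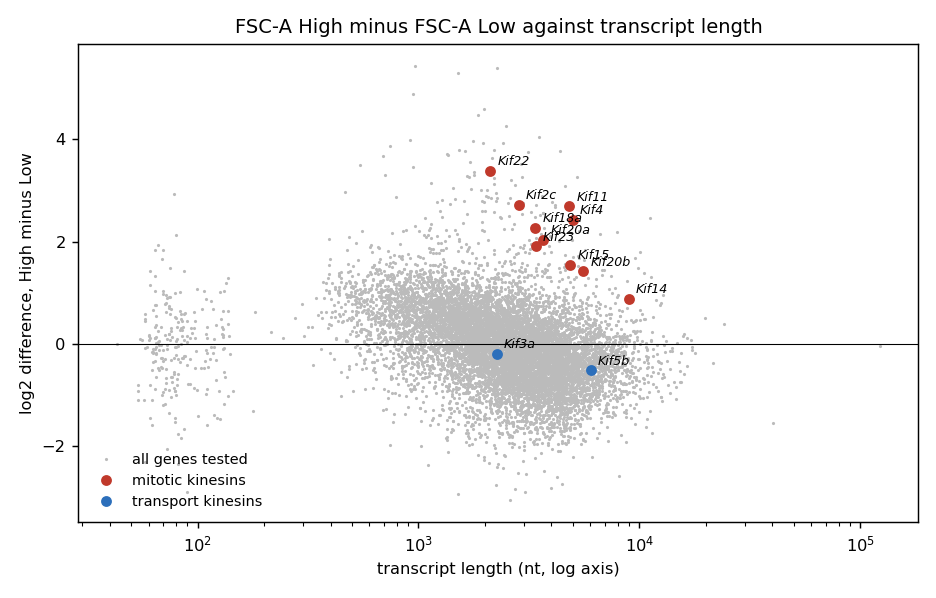
Log2 difference (FSC-A High minus FSC-A Low) against transcript length on a log axis, for all genes tested (grey), the 10 mitotic kinesins (red) and the 2 transport kinesins tested (blue). Long transcripts tend to lie below 0, and the mitotic kinesins lie above the bulk of genes at their lengths.

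Transcript length moved with the comparison. Over 10460 genes tested with a known length, longer transcripts had lower differences (Spearman -0.42 across genes, which are not independent replicates). The 750 genes of 4500 to 5500 nt had a median log2 difference of -0.45. The median length of the members was 4246.5 nt, beside 2544 nt over the genes tested, and Kif22, at 2115 nt, was the only member below that 2544 nt. Kif11, Kif15 and Kif4 lie in that window, at 4819, 4858 and 4983 nt, with differences of 2.69, 1.54 and 2.43. With a length trend removed within each library, 10 of 10 members were called higher.

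In the unfractionated HSCs, whose files hold reads divided by a size factor per library, whole reads were recovered and scaled to the library total as CPM, read counts on a common depth, per kilobase of the same transcript. These 4 libraries held 21307178 to 30889443 reads. The values were normalised separately from the RPKM and were not tested against them. Kif22 was again the highest by mean, at 46.3 ± 26.5 CPM per kb (SD, n = 4), with 63.6, 59.4, 55.4 and 6.85 CPM per kb in replicates 1 to 4. Kif14 was again the lowest in each of the 4 libraries, at 0.766 ± 0.666 CPM per kb (SD, n = 4), with 1.63, 0.604, 0.822 and 0.0149 CPM per kb. In replicate 4 both were far below the other 3 libraries, and Kif14 rested on 4 reads there, against 115 to 449 in the others.

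**Figure D5:**
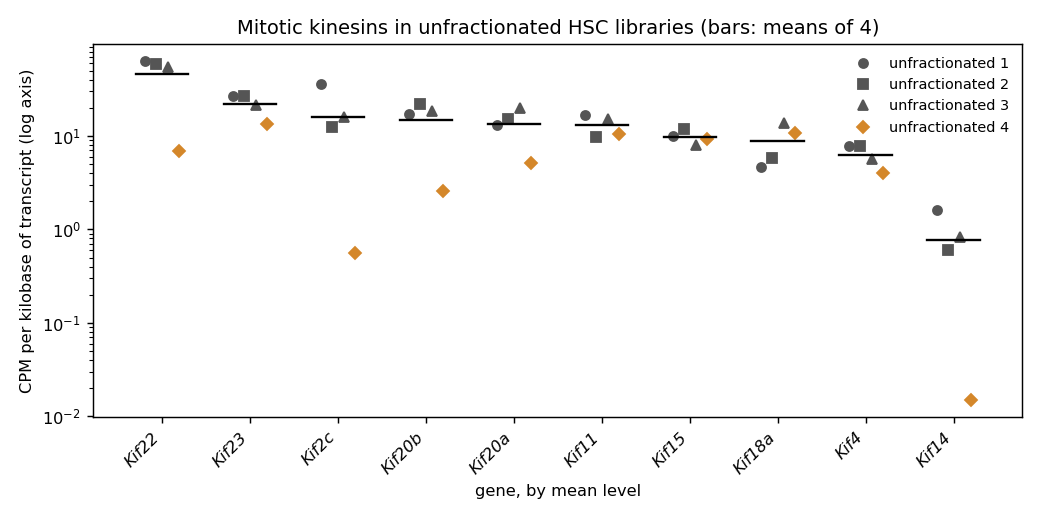
Level of the mitotic kinesins in 4 unfractionated HSC libraries as CPM per kilobase of transcript on a log axis, with the genes ordered by their mean (bar). Replicate 4 (orange) is lowest for 7 of 10 genes, and its distance from the others is greatest for Kif14, Kif2c and Kif22.

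Kif2c had 35.7, 12.6, 15.8 and 0.564 CPM per kb in unfractionated replicates 1 to 4, and Kif20b had 17.1, 21.9, 18.5 and 2.58 CPM per kb. Replicate 4 was thus low for both. It was lowest for 7 of the 10 members (Kif14, Kif20a, Kif20b, Kif22, Kif23, Kif2c and Kif4), against 41.2% of the 10998 genes with at least 1 CPM in at least 3 of these libraries. Markers stood apart in replicate 4 as well. The HSC sum was highest there, within a range of 893 to 1224 CPM. Kit, Slamf1 and Procr were highest there, while Ly6a and Mecom were neither highest nor lowest. Hlf went against the sum and was lowest there, at 139 CPM against 254 to 276 CPM. The endothelial sum was highest there too, within 60.1 to 147 CPM. In replicate 4 it was nearly all Pecam1, while Cdh5 and Kdr were lowest there. The erythroid markers matched in these files, Klf1 and Alas2, were listed at 0, against up to 5.18 CPM elsewhere. The hepatocyte sum was lowest in replicate 4, at 2.57 CPM against up to 22.9 CPM, although Alb was highest there. The myeloid sum, 489 to 627 CPM over the libraries, was neither highest nor lowest there. It was nearly all Lyz2, while Mpo was lowest in replicate 4, at 0.100 CPM against 8.38 to 16.1 CPM. The lymphoid sum reached 2.59 CPM at most. Single markers, picked out after their values were seen, included Kit at 537 CPM in replicate 4 against 192 to 252 CPM in the others, and Cd48 at 0.200 CPM against 11.0 to 28.9 CPM. The part of these shifts in the kinesin values was not tested. Kif18a went against this, with 4.71, 5.88, 13.9 and 10.8 CPM per kb, and Kif15 was even, with 9.92, 11.9, 7.92 and 9.24 CPM per kb. The summed mitotic kinesins divided by the summed transport kinesins, per kb, gave 3.20, 4.96, 4.13 and 1.82 in replicates 1 to 4. These ratios cannot be set against those of the gated libraries, because reads per gene were divided here by the length of 1 transcript. Kif3a averaged 19.1 CPM per kb here, near Kif5b at 20.4. In FSC-A High and FSC-A Low it averaged 3.15 and 3.74 RPKM, far below Kif5b at 15.5 and 22.2 RPKM.

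Between Kif22 and Kif14 the unfractionated order was loose. Kif23 (22.0 ± 6.27 CPM per kb), Kif2c (16.1 ± 14.6), Kif20b (15.0 ± 8.52), Kif20a (13.4 ± 6.21) and Kif11 (13.1 ± 3.46) lay within or near each other's SD. Kif15 (9.74 ± 1.64), Kif18a (8.81 ± 4.28) and Kif4 (6.31 ± 1.81) followed (SD, n = 4 each). Kif22 was above Kif23 in 3 of 4 libraries, and of all neighbours only Kif4 over Kif14 held in 4 of 4. Over the 10 members, the ranks of the mean levels correlated at 0.85 between FSC-A High and FSC-A Low and at 0.65 between FSC-A High and unfractionated HSCs. These are descriptions over genes that share libraries and transcript lengths. Kif20a was second by level in FSC-A High, first in FSC-A Low and at rank 5 in the unfractionated HSCs. Its level is uncertain, since its exons overlap those of Cdc23. Among transport kinesins, Kif5b stood at 20.4 ± 6.27 and Kif3a at 19.1 ± 7.38 CPM per kb in the unfractionated libraries (SD, n = 4 each).

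The genes whose profile over the 7 gated libraries was nearest to the mean profile of the members, by Euclidean distance between centred log2(RPKM + 1) values, were Spag5, Mxd3, Nup37, Smc2 and Tubb5. Their distances ran from 0.447 for Spag5, which encodes a spindle-associated protein, to 0.609 for Tubb5, a beta-tubulin. Tubb5 averaged 860 ± 201 RPKM in FSC-A High and 178 ± 10.5 RPKM in FSC-A Low libraries. Spag5 averaged 7.90 ± 2.20 RPKM in FSC-A High and 1.34 ± 0.498 RPKM in FSC-A Low libraries (SD, n = 4 and n = 3). Smc2 is a condensin subunit, Nup37 a nuclear pore protein and Mxd3 a transcription factor of the Max network. Being chosen by profile, their group differences are given as values only.

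The exons of 3 members overlap those of a gene on the opposite strand, and since nothing states that the libraries kept strand, reads there cannot be assigned to a gene. In Kif20a, 1271 of 3674 nt (34.6%) lie over Cdc23, a subunit of the anaphase-promoting complex. Cdc23 averaged 54.6 ± 6.44 RPKM in FSC-A High and 42.0 ± 7.35 RPKM in FSC-A Low libraries (log2 difference 0.38, limma adjusted p = 0.144). In Kif4, 832 of 4983 nt (16.7%) lie over Pdzd11, which averaged 54.2 ± 8.11 RPKM in FSC-A High and 24.0 ± 0.700 RPKM in FSC-A Low libraries (log2 difference 1.13, limma adjusted p = 0.000626). In Kif18a the overlap, with Mettl15, was 11 nt. The levels of Kif20a and Kif4 are uncertain by an amount that depends on the level of the other gene, not on the overlap alone. In FSC-A Low libraries Cdc23 averaged above Kif20a (12.96 RPKM). Pdzd11 averaged above Kif4 in FSC-A High (9.08 RPKM for Kif4) and in FSC-A Low libraries (1.03 RPKM for Kif4). The share of reads that came from either other gene was not tested.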

How the data were processed

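RNA of 11 HSC libraries was grouped by sample title into FSC-A High (n = 4), FSC-A Low (n = 3) and unfractionated (n = 4). The deposited gated files give 1 value for each of 33984 RefSeq transcripts. The authors' unit is not named, and these deposited values were taken as RPKM because value times length sums to nearly the same total in each library; FPKM cannot be told apart. The unfractionated files, as deposited, hold 1 signal value per gene (reads divided by a size factor), and 100% of values became whole reads within 0.01, used as CPM. Only 1 group has counts, so a count test has no comparison to make and calls no gene. STAR, DESeq2 and mm10 stand in the submitters' processing notes, with no role given.

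limma 3.58.1 (R 4.3.3, eBayes with trend) compared FSC-A High with FSC-A Low on log2(RPKM + 1) for the 10619 genes that reached 1 RPKM in 3 or more libraries, called at Benjamini-Hochberg adjusted p below 0.05. The fit was tested on simulated data. Alternatives were scaling (TMM from edgeR 4.0.16, median-ratio, upper quartile, library total), pseudocount, filter, transcript choice, trend removal, sample weights, a replicate block and leaving out each library. Members and lists were chosen with earlier results of these data known. Genes were named by rule: the members, the listed transport kinesins, partners and further kinesins, any remaining kinesin called, and the 5 non-kinesin genes nearest in profile. Sequences came from RefSeq on GRCm38.p6; Kif20a was not matched there. Intervals cover the spread between libraries only, and depth in the gated libraries is an estimate. Of the cell type markers, 2 are not reported here.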

Additional observations from a re-analysis of the deposited data

Results flagged for a closer look

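In 28 groups of 4 libraries (10 mitotic and 4 transport kinesins, in FSC-A High and in unfractionated HSCs), the highest or lowest library was compared with the rest by Dixon's ratio of gap to range against its 95% critical value. Chance passes that value in about 1 in 20 groups, and 3 groups passed it. Kif20b in FSC-A High had a low replicate 3 at 3.09 RPKM, against 4.79 to 5.08 RPKM in the other FSC-A High libraries. Kif3a in FSC-A High had a high replicate 4 at 3.56 RPKM, against 2.96 to 3.05 RPKM in the others. Kif22 in unfractionated HSCs had a low replicate 4 at 14.5 CPM, against 117 to 134.5 CPM in the others. The FSC-A Low groups have 3 libraries and were not examined this way.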

How the results depend on the processing

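Of the 10 mitotic kinesins, 9 were called higher under TMM, median-ratio, upper quartile and library total scaling, pseudocounts of 0.5 and 5, and without any 1 library. The number was 8 with no filter, with the replicate block and at adjusted p below 0.01, 8 of 8 tested with a 5 RPKM filter, and 10 with the length trend or the expression level trend removed. Over all genes tested, 2902 were called (1657 higher, 1245 lower). With the length trend removed 1924 were called, 815 of them lower. At adjusted p below 0.01 there were 1609 (1064 higher, 545 lower). Library total scaling gave 978 higher and 2272 lower, so that 30.1% of calls were higher, against 57.1% in the main comparison and 49.6% under upper quartile scaling. The median of all genes was -0.30 under library total and -0.12 under upper quartile scaling, beside -0.04. Of the transport kinesins tested (2 in the main comparison), 0 were called, and 1 (Kif5b) under library total scaling. Kif3a turned to 0.0570 with the expression level trend removed. A pseudocount of 5 lowered the log2 differences of low genes, Kif14 to 0.30. The cause of these shifts was not tested. With 1 library left out, Kif23 minus Kif20a ran from -0.371 to 0.0745 and Kif18a minus Kif2c from -0.944 to 0.0313.

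No pairing by replicate number was seen in the gated libraries, which does not exclude a shared source. Deviations of same-numbered libraries correlated at -0.03, 0.06 and 0.0001. A replicate block gave 2431 calls, with Kif15 at limma adjusted p = 0.0567. Under it the calls of Kif18b (0.0906), Kifc1 (0.0550), Klc1 (0.0643) and Kif21a (0.109) were lost too. Kif2c had the largest SE of the members, and Kif2c and Kif18a were each listed at 0 in 1 FSC-A Low library.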
